A study of Mus musculus with 4 samples.

Results

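Among the genomic regions bound by interferon regulatory factor 4 (IRF4) together with JunB in activated regulatory T (Treg) cells, 1077 regions stood far lower in the IRF4 peak list of *Junb*-deficient cells than in that of *Junb*-sufficient cells. They were taken from 31093 IRF4 peaks of *Junb*-sufficient cells, of which 12518 overlapped a JunB peak by at least 1 bp and 9539 of those also overlapped an IRF4 peak of *Junb*-deficient cells. The place of a peak is its row number divided by the length of its list, in percent, so that a small place is near the head of the list. A peak was called falling, and selected, where its place in the *Junb*-deficient list was at least 30 percentage points (points, below) greater than in the *Junb*-sufficient list. The members were thus chosen by the 2 IRF4 places and the JunB overlap, and these values are given as a description with no test.

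ChIP-seq maps where a protein sits on DNA by sequencing the fragments that an antibody pulls down. All 3 factors, JunB, BATF and IRF4, were mapped in *Junb*-sufficient cells, and IRF4 alone where *Junb* was deleted, with 1 library each, from splenic CD4+CD25+ Treg cells of C57BL/6 mice activated for 60 h with anti-CD3 and anti-CD28 antibodies and IL-2. The sample labels give Foxp3cre JUNB+/+ for the *Junb*-sufficient and Foxp3cre JUNBFl/Fl for the *Junb*-deficient cells, whereas the study's methods describe *Junb* fl/fl cells and *Cd4*Cre *Junb* fl/fl cells. With *Cd4*Cre the deletion covers all T cells and with *Foxp3*Cre it is aimed at Treg cells. The study reports that *Foxp3*Cre was probably leaky in other T cells. It found inflammation in the *Foxp3*Cre mice and no inflammatory signs in the *Cd4*Cre mice. The lists cannot tell which was used. A JunB library of *Junb*-deficient cells was not analysed here, so the loss of JunB was not checked. The libraries held 21127029 to 27399986 tags (aligned reads), and 16.0 M to 17.9 M (M, mega) were left for peak calling after at most 1 tag per bp was counted. The share of tags in peaks was 12.8% for IRF4 in *Junb*-sufficient and 11.2% in *Junb*-deficient cells. All peaks carry the same score and the lists keep no tag counts, so a fall in place is a lower standing among the peaks of that library and not a measured loss of tags. IRF4 peaks were listed within 100 kb of the Treg genes *Foxp3*, *Il2ra*, *Ctla4* and *Ikzf2* in both genotypes.

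IRF4 binds DNA weakly alone and is known to be carried to many of its sites in T cells by partner factors. A dimer of BATF with a Jun protein recognises the AP-1 motif, and with IRF4 it occupies AP-1-IRF composite elements (AICEs), in which an AP-1 site lies beside an IRF site. IRF4 can also bind interferon-stimulated response elements (ISREs), which hold paired IRF sites, and ETS-IRF composite elements (EICEs), and it is needed for the effector state of Treg cells.

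Falling and steady peaks were compared by short motifs, searched only within 100 bp of the peak centre. The 12 windows below are falling peaks, in order of their fall, among the named peaks with an AP-1 or AICE match inside the stretch printed (matches farther out, as at *Efhd1* and *Ankrd34b*, do not count here), and they are shown because the AP-1 motif was the sequence that separated the falling peaks most. Each holds the peak centre and 50 bp on either side, on the plus strand of mm9, in lower case with the AP-1 motif (TGACTCA, or TGAGTCA on the other strand) and any AICE match in capitals, and each is named by the protein-coding gene with the nearest transcription start site (TSS).

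*Runx1*, 231 kb upstream of its TSS, chr16:93057666-93057766: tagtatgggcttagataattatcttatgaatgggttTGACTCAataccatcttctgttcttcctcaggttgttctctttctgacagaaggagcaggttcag
*Slc44a1*, 5.69 kb downstream of its TSS, chr4:53459193-53459293: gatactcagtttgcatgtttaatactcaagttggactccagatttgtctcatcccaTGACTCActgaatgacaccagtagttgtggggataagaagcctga
*Atp12a*, 39.9 kb upstream of its TSS, chr14:56943998-56944098: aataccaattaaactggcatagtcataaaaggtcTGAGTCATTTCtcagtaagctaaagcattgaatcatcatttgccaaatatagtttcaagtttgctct
*Gm11077*, 6.49 kb upstream of its TSS, chr6:140671270-140671370: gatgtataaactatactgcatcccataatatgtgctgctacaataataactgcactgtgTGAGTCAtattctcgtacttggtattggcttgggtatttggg
*Tars*, 120 kb upstream of its TSS, chr15:11448888-11448988: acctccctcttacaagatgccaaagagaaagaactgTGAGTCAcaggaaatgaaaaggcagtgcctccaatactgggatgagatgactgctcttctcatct
*Il33*, 37.5 kb upstream of its TSS, chr19:29962084-29962184: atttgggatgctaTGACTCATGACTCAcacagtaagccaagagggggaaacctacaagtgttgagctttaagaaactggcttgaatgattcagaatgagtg
*Ttbk1*, 14.6 kb downstream of its TSS, chr17:46610000-46610100: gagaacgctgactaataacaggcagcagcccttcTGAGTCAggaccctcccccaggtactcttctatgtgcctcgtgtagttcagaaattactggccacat
*Synrg*, 10.3 kb upstream of its TSS, chr11:83829776-83829876: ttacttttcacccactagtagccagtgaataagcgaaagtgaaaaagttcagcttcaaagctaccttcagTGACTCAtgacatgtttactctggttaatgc
*Slc35a5*, 9.73 kb downstream of its TSS, chr16:45142255-45142355: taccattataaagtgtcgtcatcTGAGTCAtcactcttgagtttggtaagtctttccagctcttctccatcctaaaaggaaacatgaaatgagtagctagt
*Entpd1*, 19.6 kb upstream of its TSS, chr19:40714586-40714686: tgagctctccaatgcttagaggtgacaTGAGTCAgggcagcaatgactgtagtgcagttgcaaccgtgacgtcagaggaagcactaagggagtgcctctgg
*Fam114a1*, 20.2 kb downstream of its TSS, chr5:65383814-65383914: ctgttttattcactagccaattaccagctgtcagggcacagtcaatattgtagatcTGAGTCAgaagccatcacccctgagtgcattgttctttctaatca
*Runx1*, 74.7 kb downstream of its TSS, chr16:92621146-92621246: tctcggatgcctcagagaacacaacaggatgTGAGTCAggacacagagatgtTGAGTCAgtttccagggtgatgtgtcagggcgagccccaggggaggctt

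The *Atp12a* window is also within 100 kb of *Gzmb* and holds an AICE, in which the AP-1 motif and an IRF site touch. The *Il33* window has AP-1 matches directly after each other. For contrast, the next windows are the 3 steady peaks nearest the head of the list from place 5% on that held an ISRE (GAAA, any 2 bases, GAAA) in this window and no AP-1 motif within 100 bp of the centre, with ISRE and RUNX (TGTGGTT) matches in capitals. Both sets of windows were picked by their motifs and do not stand for all peaks. The AP-1 motif was found in 53.9% of falling and 31.6% of steady peaks, and an ISRE without it in 9.49% of steady peaks.

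*Nvl*, 5.24 kb downstream of its TSS, chr1:183069000-183069100: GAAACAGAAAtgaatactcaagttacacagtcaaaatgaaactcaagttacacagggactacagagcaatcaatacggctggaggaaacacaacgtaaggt
*Pfkp*, 3.99 kb upstream of its TSS, chr13:6651963-6652063: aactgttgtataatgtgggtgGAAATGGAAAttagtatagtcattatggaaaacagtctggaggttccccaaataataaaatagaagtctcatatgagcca
*Schip1*, 42.3 kb downstream of its TSS, chr3:68441944-68442044: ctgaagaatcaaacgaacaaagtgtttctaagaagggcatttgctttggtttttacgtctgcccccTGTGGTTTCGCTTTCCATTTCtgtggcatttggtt

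In the *Junb*-sufficient list the 1077 falling peaks stood at a median place of 23.5%, with the middle 50% between 15.1% and 34.8%. In the *Junb*-deficient list their median place was 72.1%, with the middle 50% between 58.3% and 85.4%. The median fall was 42.8 points and the range ran from 30.01 to 90.25 points. A fall of 30 to 40 points was seen in 449 peaks, of 40 to 50 points in 286, of 50 to 60 points in 182, and of 60 points or more in 160. In the *Junb*-deficient list, 459 of them (42.6%) stood at 75% or beyond and 180 (16.7%) at 90% or beyond. The cut at 30 points runs through a continuous spread. The members just inside fell by 30.01 points (near *Wwox*) and 30.03 points (near *Itgav*), and the peaks just outside by 29.99 points (near *Scaf8*) and 29.97 points (near *Efna5*). The centres of the 2 IRF4 peaks lay within 100 bp of each other for 961 of the 1077 falling peaks (89.2%) and for 89.9% of steady ones, and no *Junb*-deficient peak was the counterpart of more than 1 member.

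**Figure D1:**
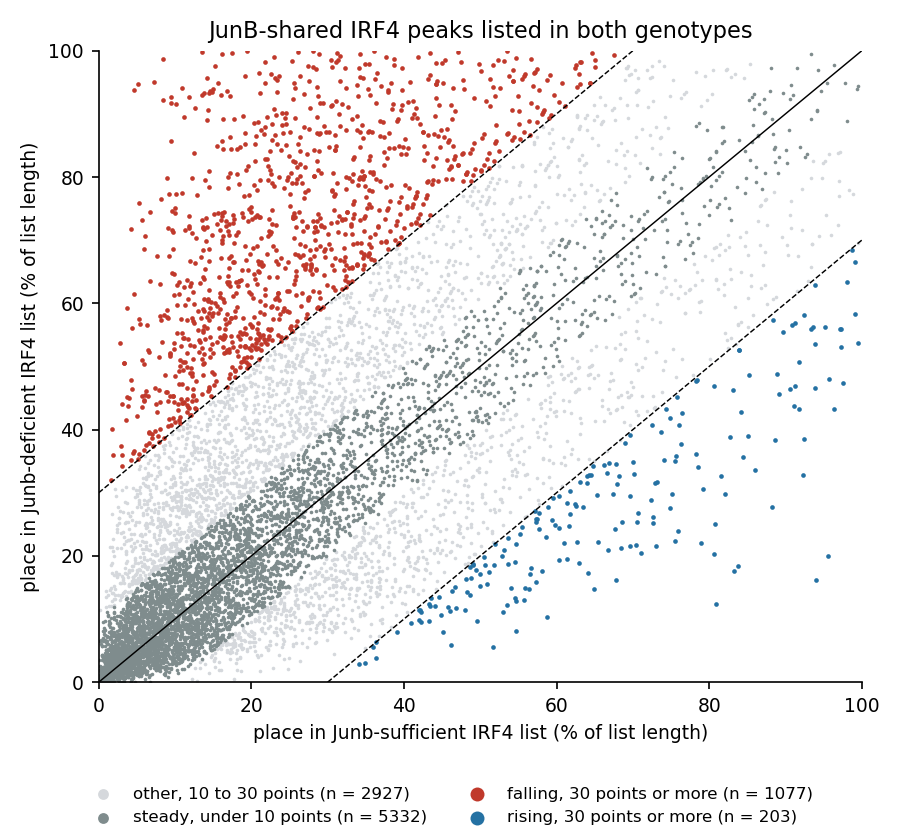
Place of each of the 9539 JunB-shared IRF4 peaks in the *Junb*-sufficient list (x axis, percent of list length) against its place in the *Junb*-deficient list (y axis, percent), 1 point per peak. Dashed lines mark 30 points above and below the diagonal, with the 1077 falling peaks above and the 203 rising peaks below.

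Falls of this size made up 11.3% of the 9539 JunB-shared peaks with a *Junb*-deficient counterpart. Among all 20218 IRF4 peaks with a counterpart, shared with JunB or not, 8.3% fell and 5.87% rose by 30 points or more. Of the 10679 peaks with a counterpart and no JunB peak, 602 fell (5.64%) and 983 rose (9.20%), against 203 rises (2.13%) among the JunB-shared peaks. These shares depend on where the peaks begin, because a peak near the head cannot rise far and a peak near the end cannot fall far. Both moves are possible between places 30% and 70%, where 377 of 2469 JunB-shared peaks fell (15.3%, exact binomial 95% interval 13.9 to 16.7%) and 118 rose (4.78%, 3.97 to 5.70%). In the same stretch 503 of 5824 peaks without JunB fell (8.64%, 7.93 to 9.39%) and 309 rose (5.31%, 4.74 to 5.91%). In steps of 10% of the list, the falling share of JunB-shared peaks was 3.95% at the head, reached 19.2% between places 30% and 40%, and was above that of peaks without JunB in each of the 7 steps in which a fall was possible. The 95% intervals were apart in the steps between places 10% and 40% and overlapped in the others. For *Junb*-sufficient cells an antibody field in the labels exchanges BATF and IRF4 relative to the sample titles, which were followed here. If the field were right, 422 of 7660 JunB-shared peaks with a counterpart would fall (5.51%) and 1348 would rise. Between places 30% and 70%, 769 of 3070 would rise (25.05%). The excess of falls over rises thus rests on the titles. Its size also depends on how place is counted. With places counted among the JunB-shared peaks of both lists, 753 of 9539 fell (7.89%) and 641 rose, against 1077 and 203 as reported. Intervals cover counting error over peaks only. With 1 library per genotype, the spread of places between repeat libraries of one genotype is not known, and p-values below describe the peaks of these lists and not the genotypes.

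To find what the falling peaks shared beyond the rule, they were compared with 3 other sets of JunB-shared IRF4 peaks. Steady peaks (5332) moved by less than 10 points, rising peaks (203) moved up by 30 points or more, and missing peaks (2979) had no overlapping peak in *Junb*-deficient cells. A Mantel-Haenszel odds ratio was computed for 15 features of sequence, position or peak lists whose values the rule did not use. It was taken over 20 strata of place in the *Junb*-sufficient list, so that peaks of like place were compared. The place of the JunB peak and a neighbouring IRF4 peak within 10 kb come from lists that the rule did use, for overlap and place. P-values are from two-sided Cochran-Mantel-Haenszel chi-square tests with Benjamini-Hochberg adjustment over the 45 comparisons. Against steady peaks 10 of 15 features passed an adjusted p of 0.05, 4 of them higher and 6 lower in falling peaks. Against rising peaks 4 passed and against missing peaks 3 passed.

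The AP-1 motif gave the lowest p. It lay within 100 bp of the centre of 580 of the 1077 falling peaks (53.9%, 95% interval 50.8 to 56.9%) and of 1683 of the 5332 steady peaks (31.6%, 30.3 to 32.8%). The odds ratio was 3.13 (2.71 to 3.62, adjusted chi-square p = 7.36e-56). Over all 31093 IRF4 peaks the share was 26.4%, and in 12096 windows of the same width 5 kb downstream of JunB-shared peaks and clear of peaks of all lists it was 3.59%. The difference was widest at the head of the list, where 83 of the 113 falling peaks in the first 10% held the motif (73.5%, 64.3 to 81.3%), against 36.8% of steady peaks (34.8 to 38.8%). Of the peaks with the motif, 112 of 580 falling peaks (19.3%) and 158 of 1683 steady peaks (9.39%) held more than 1 match. The median distance from the IRF4 peak centre to the nearest match was 18 bp in falling and 19 bp in steady peaks.

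Rising peaks rarely held the motif, in 37 of 203 (18.2%, 13.2 to 24.2%). The comparison with falling peaks of like place rested on 377 falling and 118 rising peaks and gave an odds ratio of 3.63 (2.02 to 6.53, adjusted chi-square p = 3.15e-05). Missing peaks held it in 49.0% (47.2 to 50.8%), and the odds ratio of falling against missing peaks was 1.11 (0.952 to 1.29, adjusted chi-square p = 0.332), so a difference was not resolved. With counterparts counted only where centres lay within 100 bp it was 1.49, and with places counted among the JunB-shared peaks of both lists 1.43, and both of these passed. Along the whole range of shifts the share with the AP-1 motif was 17.2% for rises of 20 to 30 points, 25.9% for rises under 10 points, 36.6% for falls under 10 points, 46.6% for falls of 20 to 30 points, and 57.5% for falls of 60 points or more. This step series is a description over the same 9539 peaks, and the median starting place of the groups differs, from 9.85% for falls under 10 points to 65.4% for rises of 30 points or more, with 20.5% for the largest falls.

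**Figure D2:**
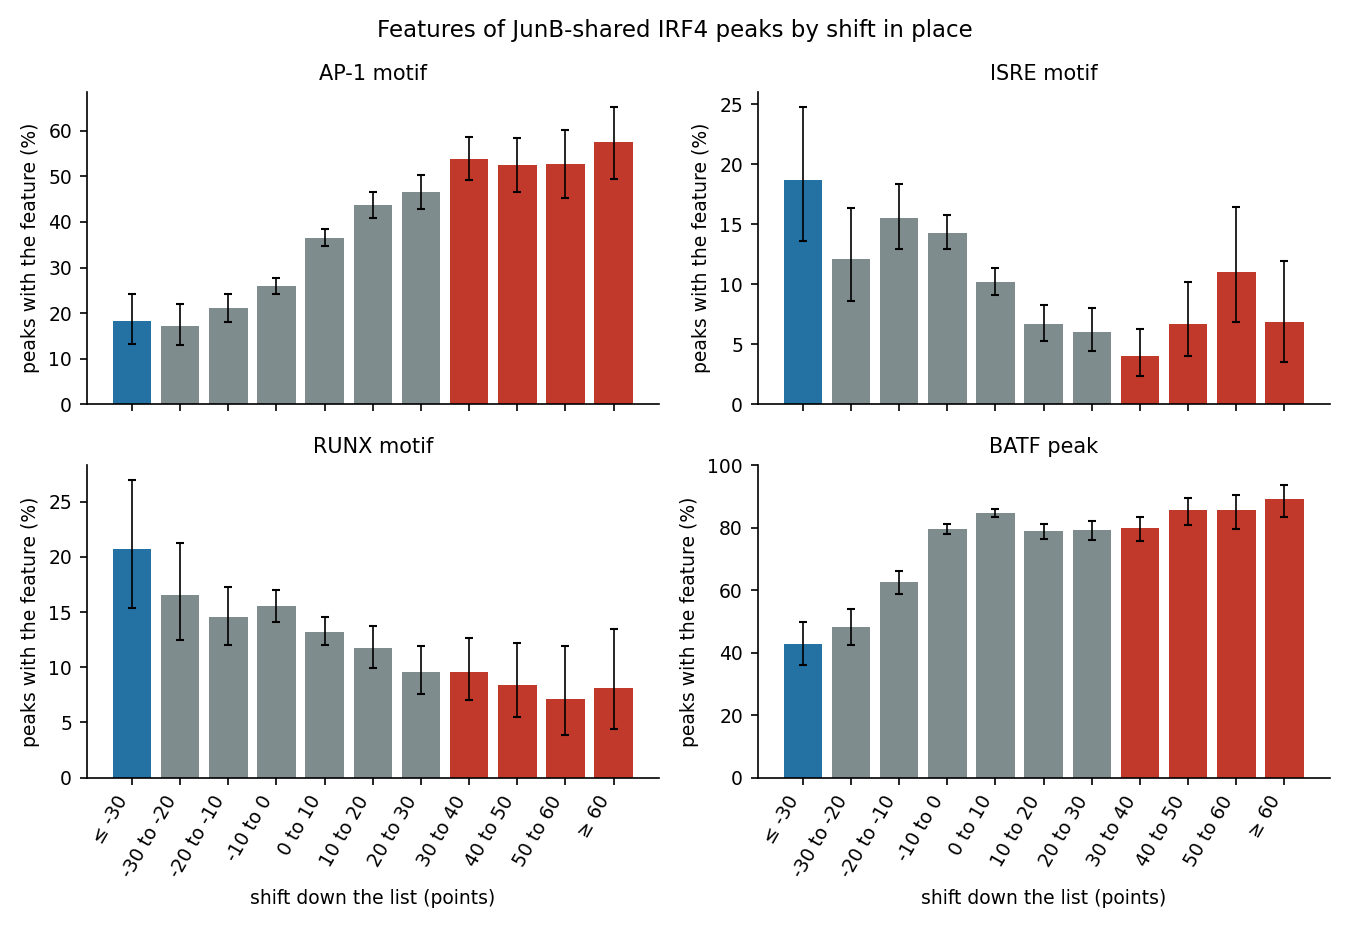
Share of JunB-shared IRF4 peaks (y axis, percent) with an AP-1 motif, ISRE motif, RUNX motif or BATF peak, by shift in place (x axis, points, positive for a fall), with exact binomial 95% intervals; blue is rising, red is falling. The AP-1 share climbs from 18.2% at rises of 30 points or more to 57.5% at falls of 60 points or more, while the RUNX share goes from 20.7% to 8.13%.

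The ISRE and RUNX motifs were less frequent in falling than in steady peaks. The ISRE was found in 68 falling peaks (6.31%, 4.94 to 7.94%) and 646 steady peaks (12.1%, 11.3 to 13.0%), with an odds ratio of 0.467 (0.356 to 0.612, adjusted chi-square p = 1.75e-07). The RUNX motif, bound by the Runx proteins that act with Foxp3, was found in 8.64% of falling and 14.3% of steady peaks, with an odds ratio of 0.570 (0.450 to 0.722, adjusted chi-square p = 1.18e-05). Against rising peaks of like place both were lower too, with an odds ratio of 0.148 for the ISRE (0.0671 to 0.325, adjusted chi-square p = 1.80e-06) and 0.368 for RUNX (0.182 to 0.744, adjusted chi-square p = 0.0150). The RUNX call against rising peaks was lost in the first 25000 rows of the lists (odds ratio 0.772, adjusted chi-square p = 0.657) and with strata of place and GC content (0.434, adjusted chi-square p = 0.0615). The GATA motif (AGATAAG) was also lower than in rising peaks (odds ratio 0.190, 0.0711 to 0.505, adjusted chi-square p = 7.22e-04), and its odds ratio against steady peaks was 0.753 (0.534 to 1.06, adjusted chi-square p = 0.220). With moves of 40 points or more, which left 81 rising peaks, the ISRE (0.690) and GATA (0.357) odds ratios against rising peaks did not pass, nor did that of the ISRE with BATF and IRF4 exchanged (0.756). Missing peaks held the ISRE in 4.43% and RUNX in 8.43%, and neither passed in falling against missing peaks. The odds ratios were 1.39 for the ISRE (1.00 to 1.93, adjusted chi-square p = 0.106) and 1.02 for RUNX (0.782 to 1.34, adjusted chi-square p = 0.991). Over all IRF4 peaks the ISRE was found in 9.49%, RUNX in 11.1% and GATA in 4.47%, and in the downstream windows in 2.98%, 5.19% and 2.83%.

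Seen together, an AP-1 motif without an ISRE or RUNX motif was the makeup of 508 falling peaks (47.2%, 44.2 to 50.2%), 1358 steady peaks (25.5%, 24.3 to 26.7%) and 26 rising peaks (12.8%, 8.54 to 18.2%). An ISRE or RUNX motif without AP-1 was the makeup of 7.71% of falling (6.18 to 9.46%), 18.9% of steady (17.9 to 20.0%) and 31.5% of rising peaks (25.2 to 38.4%). Missing peaks were close to falling ones in both, with overlapping intervals. They held AP-1 without an ISRE or RUNX motif in 43.9% (42.1 to 45.7%). An ISRE or RUNX motif without AP-1 was found in 7.42% of them (6.50 to 8.42%). None of the 3 motifs was found in 414 falling peaks (38.4%).

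The composite AICE, searched as GAAA directly before TGANTCA or as TTTC, 4 bases, TGANTCA, on both strands, was rare. It was found in 56 falling peaks (5.20%, 3.95 to 6.70%) and 249 steady peaks (4.67%, 4.12 to 5.27%), against 2.86% of all IRF4 peaks and 0.165% of downstream windows. At like place the odds ratio was 1.55 (1.12 to 2.14, adjusted chi-square p = 0.0213), and the call did not hold under 12 of the 20 other settings tried. Of the 56 AICE matches, 40 lay in peaks that also held the AP-1 motif, with which the AICE can overlap. The form with both sites touching was found in 34 falling peaks (3.16%) and 131 steady peaks (2.46%), and the spaced form in 23 (2.14%) and 121 (2.27%). The EICE (GGAA, any 2 bases, GAAA), ETS (AGGAAGT) and CRE (TGACGTCA) motifs passed in no comparison, with odds ratios against steady peaks of 0.930 (0.644 to 1.34), 0.803 (0.628 to 1.03) and 1.00 (0.417 to 2.42). Over all IRF4 peaks these were found in 3.74%, 10.1% and 0.827%, and in downstream windows in 1.85%, 5.10% and 0.107%.

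Without any motif fixed in advance, every 7-letter word found in at least 100 of the falling and steady windows was compared in the same strata, a step added after the motif results were seen. Of 4786 words, 83 passed an adjusted p of 0.05 (1.73%), with 73 higher and 10 lower in falling peaks. The word with the lowest p was TGACTCA itself. Of the 73 higher words, 27 shared at least 5 letters in a row with it or its other strand, as did 106 of all 4786 words, and these words are not independent. Among the 27 was TGACTAA, found in 17.8% of falling and 10.8% of steady peaks (odds ratio 2.00, adjusted chi-square p = 5.30e-10). TGAATCA, not among the 27, was found in 14.9% and 8.91% (odds ratio 2.03, adjusted chi-square p = 1.21e-08). The lower words were led by the RUNX word TGTGGTT (odds ratio 0.570, adjusted chi-square p = 4.64e-04) and AAACTGA (6.50% and 11.6%, odds ratio 0.560, adjusted chi-square p = 0.00271).

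**Figure D3:**
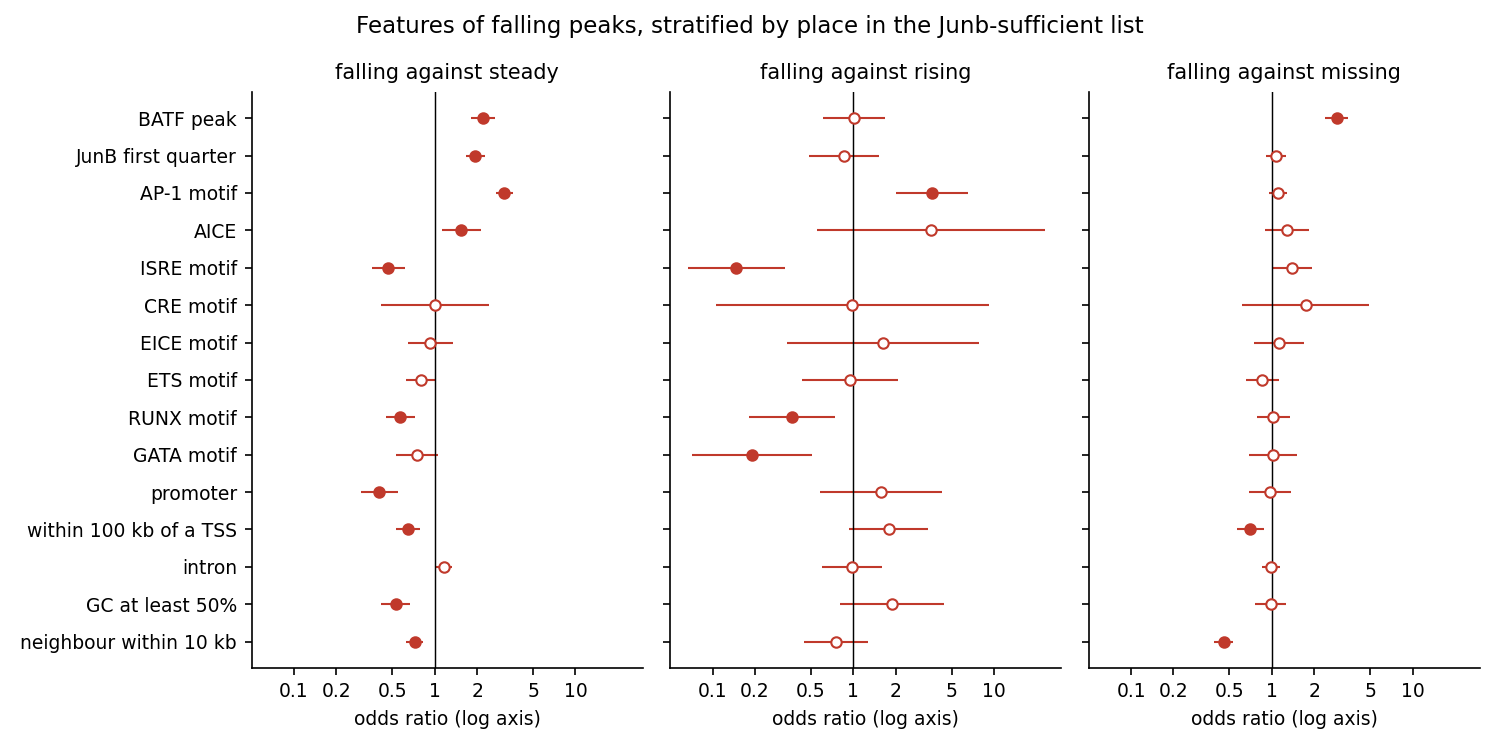
Mantel-Haenszel odds ratios (x axis, log scale) with 95% intervals for 15 features (y axis) of falling peaks against steady, rising and missing peaks, over 20 strata of place; filled points passed an adjusted p of 0.05. The AP-1 motif is higher than in steady and rising peaks, and the BATF peak is the only feature higher than in missing peaks past that threshold.

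BATF, the usual partner of JunB on AICEs, was present at most falling peaks. A BATF peak overlapped 903 of 1077 (83.8%, 81.5 to 86.0%) and 4398 of 5332 steady peaks (82.5%, 81.4 to 83.5%). Steady peaks stood nearer the head, where BATF peaks are most frequent, with a median place of 11.9%. At like place BATF was more frequent in falling peaks (odds ratio 2.21, 1.81 to 2.69, adjusted chi-square p = 9.86e-14). Between places 20% and 30%, a BATF peak overlapped 239 of 274 falling (87.2%), 510 of 701 steady (72.8%) and 291 of 440 missing peaks (66.1%). Between places 40% and 50% the shares were 58.0% (47.7 to 67.8%) of falling and 54.8% (47.9 to 61.4%) of steady peaks, with overlapping intervals. In the first 10% it overlapped all 113 falling peaks, 96.2% of 2350 steady peaks and 72.5% of 149 missing peaks. Over all places the odds ratio against missing peaks was 2.88 (2.38 to 3.48, adjusted chi-square p = 7.16e-28). Against rising peaks it was 1.02 (0.613 to 1.69, adjusted chi-square p = 0.991), an interval that leaves room for a difference in either direction.

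At like IRF4 place, JunB peaks at falling peaks stood nearer the head of their own list than those at steady peaks. The overlapping JunB peak was in the first 25% of the JunB list for 540 falling peaks (50.1%, 47.1 to 53.2%) and for 3025 steady peaks (56.7%, 55.4 to 58.1%), and at like IRF4 place the odds ratio was 1.94 (1.66 to 2.27, adjusted chi-square p = 3.43e-16). Its direction thus turns with the strata, since without them it was 0.767. Among peaks at IRF4 places 10% to 30%, the median JunB place was 21.8% for 587 falling, 29.5% for 2050 steady and 22.9% for 781 missing peaks. The median BATF place of the peaks with BATF in the same stretch was 38.0%, 37.1% and 39.1%, close together compared with the middle 50% of falling peaks, 27.2% to 54.9%. Against missing peaks the odds ratio for the first 25% of the JunB list was 1.08 (0.911 to 1.27, adjusted chi-square p = 0.565), and against rising peaks 0.861 (0.487 to 1.52, adjusted chi-square p = 0.782). The comparison with missing peaks depended on the setting, and passed with counterparts counted only where IRF4 centres lay within 100 bp (1.33, adjusted chi-square p = 0.00132) and without strata (2.19, adjusted chi-square p = 1.04e-26).

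**Figure D4:**
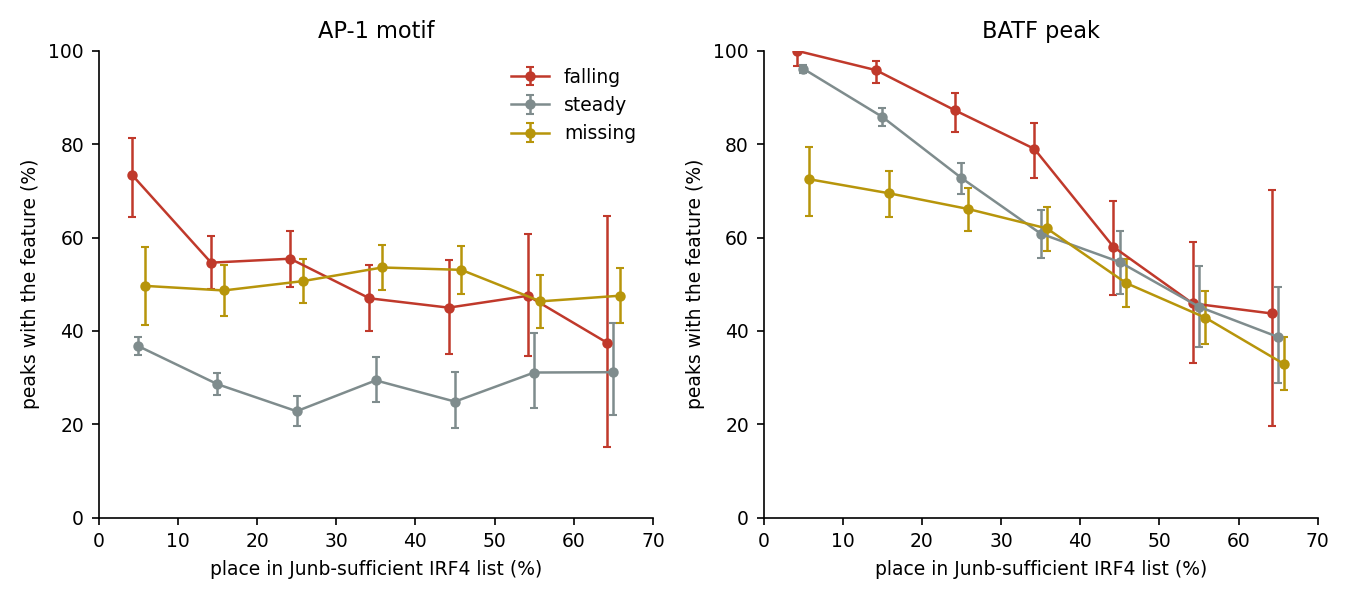
Share of falling, steady and missing peaks (y axis, percent) that hold an AP-1 motif or overlap a BATF peak, by place in the *Junb*-sufficient IRF4 list (x axis, percent, in steps of 10%), with exact binomial 95% intervals. The AP-1 share of falling peaks starts at 73.5% in the first 10%, and at places 20% to 30% the BATF share is 87.2% in falling, 72.8% in steady and 66.1% in missing peaks.

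Falling peaks lay mostly away from promoters. A centre within 1 kb of a protein-coding TSS was found for 53 (4.92%, 3.71 to 6.39%), 539 were intronic (50.05%), 31 exonic (2.88%) and 454 intergenic (42.2%). Promoters held 8.83% of steady peaks, with an odds ratio of 0.405 (0.300 to 0.547, adjusted chi-square p = 6.52e-09). A TSS within 100 kb was less frequent as well, 83.7% against 87.8% (odds ratio 0.648, 0.533 to 0.787, adjusted chi-square p = 3.58e-05), and so was a GC content of at least 50% within 100 bp of the centre (9.01% against 12.5%, odds ratio 0.527, 0.417 to 0.666, adjusted chi-square p = 3.57e-07). Introns gave an odds ratio of 1.16 (1.01 to 1.33, adjusted chi-square p = 0.0844). Another IRF4 peak of the same list lay within 10 kb of 33.5% of falling and 44.4% of steady peaks (odds ratio 0.719, 0.622 to 0.832, adjusted chi-square p = 3.15e-05). The share was 43.0% in missing peaks (odds ratio 0.454, 0.387 to 0.532, adjusted chi-square p = 7.91e-22). HOMER required each peak to exceed the 10 kb around it 4-fold, and whether this filter has a part in the difference from missing peaks was not tested.

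Most neighbours of falling peaks did not fall, but more of them fell than among neighbours of steady peaks. Over all 9539 JunB-shared peaks with a counterpart, 11.3% fell. Within 50 kb of the falling peaks, 973 pairs with another JunB-shared peak found in both genotypes were counted, and in 136 of them the neighbour fell too (13.98%), against 513 of 7458 pairs (6.88%) around steady peaks. The median shift of these neighbours was 4.91 points, against 0.794 points for neighbours of steady peaks. Within 10 kb, 24 of 137 neighbours fell (17.5%), against 71 of 1304 (5.44%) around steady peaks, and the median shift was 5.90 points. Pairs share peaks, and a pair of falling peaks was counted from each side. They were not matched for place in the list and were not tested. A total of 2416 protein-coding genes had a falling peak within 100 kb of a TSS, 2166 of them a single one. The most, 4, were near *Clec2g*, which lies in the gene cluster of C-type lectin-like receptors on chromosome 6. They stood among 7 JunB-shared peaks listed in both genotypes, and fell by 32.1, 44.3, 48.2 and 58.4 points.

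The 15 largest falls were 80.9 to 90.2 points. Of these peaks, 11 held an AP-1 motif, 14 overlapped a BATF peak and none held a RUNX motif. Among all 1077 falling peaks the shares were 53.9%, 83.8% and 8.64%. The largest was an intergenic peak at chr16:93057410-93058022 in mm9, 231 kb upstream of the nearest TSS, that of *Runx1*, and it went from place 8.46% to 98.7%. Its JunB peak stood at place 1.10% and its BATF peak at place 4.93% of their lists. The next, in an intron of *Slc44a1*, a choline transporter gene, went from 5.17% to 94.7%. The third, at chr14:56943742-56944354, went from 4.64% to 93.8% and lay 39.9 kb upstream of *Atp12a* and 63.0 kb upstream of *Gzmb*, which encodes the cytotoxic protease granzyme B. All 3 thus moved from the first 10% of the list to the last 10%.

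A peak 6.49 kb upstream of *Gm11077* went from 7.21% to 95.02%, and its counterpart was centred 506 bp away. A distal peak, 120 kb upstream of *Tars*, went from 13.6% to 99.8% and held an ISRE and an EICE beside the AP-1 motif. Upstream of *Efhd1* a peak with an AICE went from 8.47% to 92.1%. A peak 37.5 kb upstream of *Il33*, which encodes the cytokine that binds the receptor ST2, went from 16.1% to 99.5%. Further peaks were near *Ptplad2* (83.2 points), *A330017A19Rik* (83.1 points), *Ttbk1* (82.4 points), *Synrg* (82.3 points), *Slc35a5* (82.2 points), *Ankrd34b* (81.5 points) and *Twf1* (81.5 points). Only the *Synrg* peak among the 15 had no BATF peak.

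The 10 falling peaks nearest the head of the list all overlapped a BATF peak and 7 held the AP-1 motif. In the first 10% of the list, a BATF peak overlapped all 113 falling peaks and 96.2% of steady peaks. The AP-1 motif was held by 73.5% of these falling peaks. The first of the 10 was an intronic peak of *Cblb*, which encodes a ubiquitin ligase that restrains T cell activation. It stood at row 513 of 31093 in *Junb*-sufficient cells (1.65%) and at row 9284 of 29033 in *Junb*-deficient cells (32.0%), and its JunB and BATF peaks stood at rows 103 and 178 of their lists. An intronic peak of *Ubr1* went from 1.81% to 40.03%, with JunB and BATF peaks at rows 64 and 53. The largest fall of the 10 was 50.9 points, at an intronic peak of *Fam114a1* that went from 2.85% to 53.7%. Others fell by 31.2 to 47.2 points, near *Odf1*, *Zzef1* (its promoter), *1700025G04Rik* and *Ston2* and, more than 100 kb from a TSS, nearest to *Gm355* and *1110002B05Rik*.

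The opposite move was led by peaks that began near the end of the list. The 5 largest rises had shifts of -77.8 to -65.5 points, negative for a rise, and were led by *Cdk8*, which encodes a kinase of the Mediator complex (94.0% to 16.3%), and *Mical2* (95.6% to 20.0%), and included *Ogt*, which encodes the O-GlcNAc transferase (83.2% to 17.6%) and *Exoc4* (83.8% to 18.4%). Of these 5, 1 held the AP-1 motif and 2 overlapped a BATF peak, against 18.2% and 42.9% of all 203 rising peaks.

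Falling peaks within 100 kb of a TSS of genes from 9 lists were counted against the 11.3% of all JunB-shared peaks with a counterpart. The lists are of Treg and T cell genes and were drawn up with earlier results of these data known, so the counts are descriptions. Near 20 effector Treg genes there were 9 falling peaks among 82 (10.98%, 5.14 to 19.8%), with a median shift of 2.09 points over the 82, against 2.20 points over all 9539. Near 20 genes of T cell receptor signalling there were 8 among 64 (12.5%, 5.55 to 23.2%; median shift 1.34 points). For the other lists the count was 4 of 56 near Treg identity genes (median shift 0.994 points), 2 of 39 near AP-1 and IRF genes (1.66 points), 3 of 46 near helper lineage genes (-0.867 points), 4 of 77 near homing genes (1.31 points), 4 of 48 near survival and death genes (0.349 points), 1 of 34 near cell cycle and growth genes (5.58 points) and 0 of 15 near genes of B and myeloid cells (-4.29 points). The 95% interval of the share of every one of the 9 lists includes 11.3%, the narrowest upper bound being that of the homing genes (5.19%, 1.43 to 12.8%), and no test was made.

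Among effector Treg genes, falling peaks lay near *Icos*, *Ctla4*, *Maf*, *Nt5e*, *Gzmb*, *Il1rl1* and *Entpd1*. The peak between *Ctla4*, an inhibitory receptor gene, and *Icos*, a costimulatory receptor gene, lay at chr1:60987027-60987639, 21.3 kb downstream of *Ctla4* and 47.4 kb upstream of *Icos*, and went from 15.5% to 84.9%. It overlapped a BATF peak and held neither an AP-1 motif nor an AICE. Of 18 JunB-shared IRF4 peaks from 60 kb upstream to 160 kb downstream of *Ctla4*, it was the only falling one, 6 were missing and 9 were steady. A further falling peak, 59.3 kb downstream of *Cd28*, went from 33.3% to 75.8%. It lay 81.3 kb upstream of the *Ctla4* TSS nearest to it, which is not the TSS used for the distances above.

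At *Gzmb*, 2 of the 5 JunB-shared peaks with a counterpart fell, the upstream one given above and a promoter peak 123 bp before the TSS that went from 43.2% to 86.7%. Both held the AP-1 motif, and the promoter peak overlapped no BATF peak. The other 3 shifted by -8.10, -3.19 and 8.60 points, negative for a rise. At *Maf*, the gene of the transcription factor c-Maf, a peak 63.4 kb upstream with an AP-1 motif went from 7.58% to 42.8%. The larger falls near *Nt5e* (CD73, 56.4 points), *Il1rl1* (ST2, 54.7 points) and *Entpd1* (CD39, 52.9 points) ended at places 83.7%, 73.7% and 87.2%. Near *Prdm1*, the gene of Blimp-1, none of 7 peaks fell by 30 points, and the largest fall was 17.7 points. Near *Il10* the largest of 5 was 20.1 points, and near *Gata3*, a list gene of the helper lineages, the largest of 3 was 2.37 points. Falls of 30 points were also absent near *Tigit*, *Fgl2* and *Klrg1*, which the study names among genes whose expression JunB promotes. The largest fall was 5.25 points among 8 peaks near *Tigit*, 25.02 points among 7 near *Fgl2* and 2.01 points among 2 near *Klrg1*. These counts leave out missing peaks. There was 1 missing JunB-shared peak each near *Prdm1*, *Gata3*, *Tigit* and *Fgl2*, and 0 near *Il10* and *Klrg1*. A *Gata3* peak also had a shift of -48.1 points, negative for a rise.

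**Figure D5:**
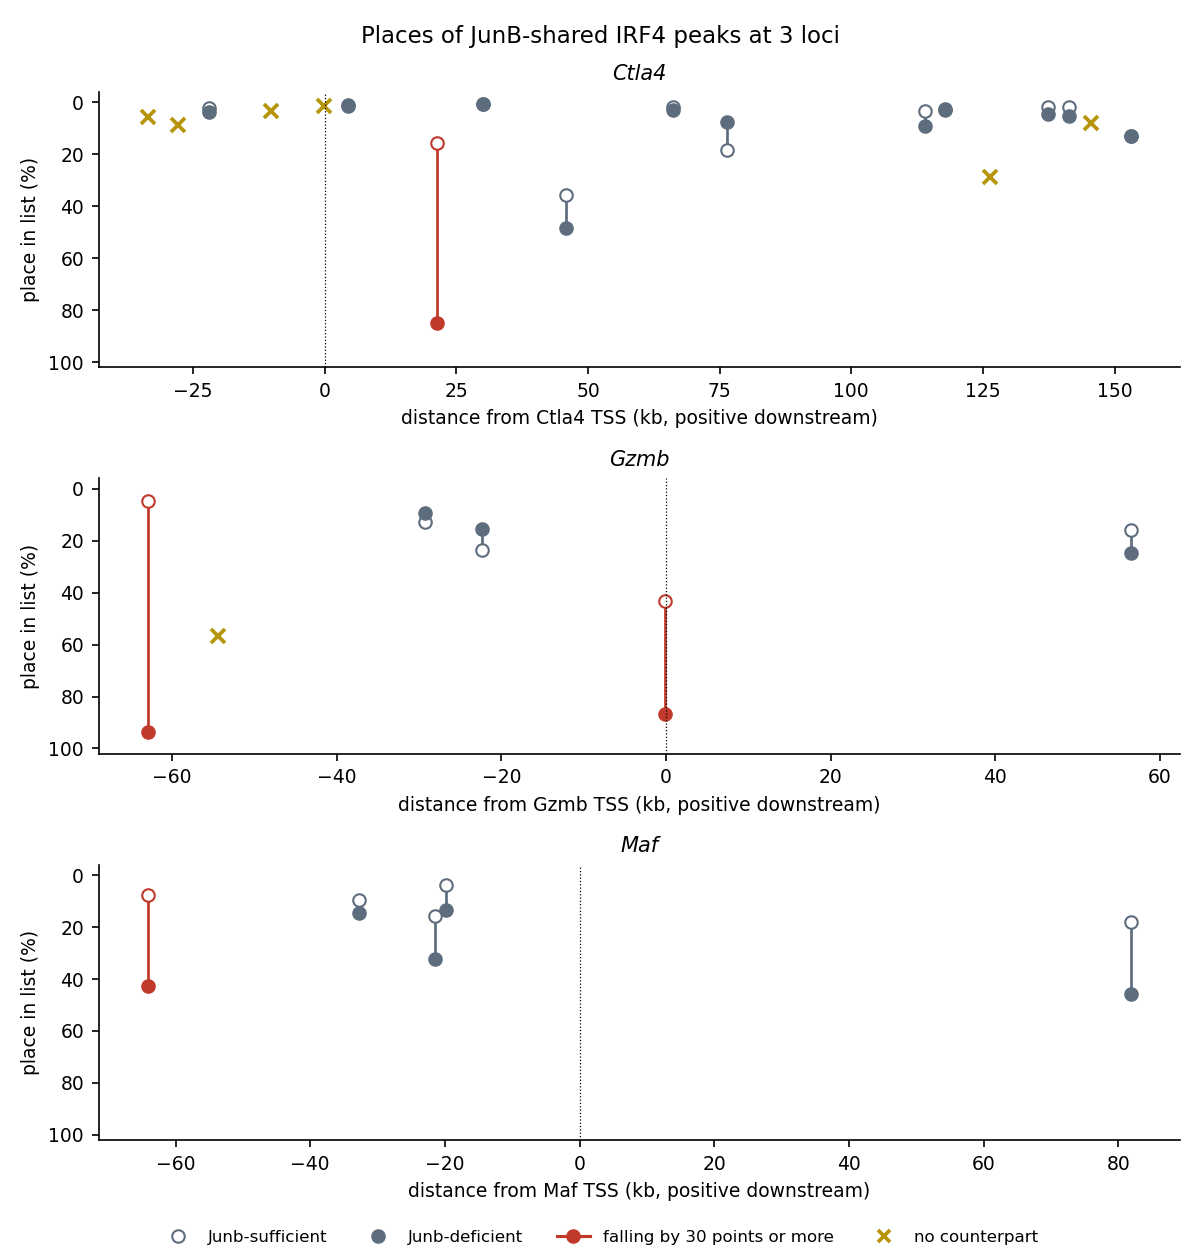
Places of JunB-shared IRF4 peaks (y axis, percent of list length, head of the list at the top) by distance from the TSS of *Ctla4*, *Gzmb* and *Maf* (x axis, kb, positive downstream), with open circles for *Junb*-sufficient and filled circles for *Junb*-deficient cells, and crosses for peaks with no counterpart. Of the peaks drawn, 1 of 18 at *Ctla4*, 2 of 6 at *Gzmb* and 1 of 5 at *Maf* fell by 30 points or more (red).

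Among Treg identity genes, falling peaks lay near *Foxp3*, *Runx1* and *Bach2*. A peak 87.3 kb downstream of *Foxp3*, in an exon and nearest to *Plp2*, fell by 40.8 points. In an intron of *Runx1* a peak with 2 AP-1 matches in its printed window, 74.7 kb downstream of a TSS, fell by 50.5 points. At *Bach2*, a repressor that competes for AP-1 sites, 2 of 18 peaks fell, the larger by 36.7 points at the promoter. Among AP-1 and IRF genes, a promoter peak of *Fosb* fell by 31.6 points and a peak near *Fosl2* by 48.7 points. Falling peaks near helper lineage genes included a pair near *Il17a* and *Il17f* (44.8 and 30.4 points).

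Near T cell receptor signalling genes, the falls were 37.7 points for *Cd247*, 42.5 points for *Cd28*, 51.9 points for *Zap70*, 36.7 points for *Lcp2*, 36.3 points for *Nfatc1*, 47.3 points for *Nfatc2* and 45.6 points for *Nfkb1*. *Zap70* had another falling peak (35.5 points). Among homing genes, a peak with an AICE in reach of *Ccr2* fell by 43.6 points, and peaks near *Ccr8*, *Cxcr4* and *Itga4* fell by 44.0, 40.3 and 37.0 points. Near survival genes, the falls were 38.2 points for *Bcl2*, 40.2 points for a peak in reach of *Casp8* and *Cflar*, 30.1 points for a further *Casp8* peak and 35.0 points for *Birc3*. The *Cdkn1b* peak fell by 31.3 points.

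Falling peaks off JunB also held the AP-1 motif more often and the ISRE less often than steady ones. Of the 602 IRF4 peaks that fell without overlapping a JunB peak, 184 held the AP-1 motif (30.6%, 26.9 to 34.4%), against 10.8% of the 4357 steady ones (9.88 to 11.7%). A BATF peak overlapped 41.4% (37.4 to 45.4%) and 22.4% (21.1 to 23.6%), and the ISRE was found in 5.48% (3.80 to 7.61%) and 11.9% (10.9 to 12.9%). Among JunB-shared peaks the BATF shares without strata were close, 83.8% of falling and 82.5% of steady peaks. The RUNX motif was found in 8.80% and 11.5% of peaks off JunB, with overlapping intervals. Promoters held 17.3% and 34.4%, and a GC content of at least 50% was found in 26.9% and 42.3%. For JunB-shared peaks the promoter shares were 4.92% of falling and 8.83% of steady peaks, and the GC shares 9.01% and 12.5%. The higher promoter and GC shares off JunB were thus seen in steady peaks as well as in falling ones. These shares are not stratified by place and were not tested. If the antibody field of the labels were right, the AP-1 odds ratio against steady peaks would be 1.59, still past the threshold, and that of the peak of the exchanged list in place of BATF 0.996.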

How the data were processed

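The authors mapped ChIP-seq reads uniquely with Bowtie2 (assembly mm9) and ran HOMER on every library separately (version 4.8 in the submitters' processing notes; findPeaks, factor style, no control library in the recorded command). Per the file headers, peaks passed a false discovery rate of 0.001 at a threshold of 10 tags for JunB and 19 for the other libraries, and stood 4-fold above the surrounding 10 kb. The deposited lists hold peak positions and a score, which the authors' files give as 1 for every peak, so the score was not used. Sample titles gave the groups.

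The lists were read as deposited. The headers name no order, and the order was checked: 94.95% of *Junb*-sufficient IRF4 peaks in the first 10% had a *Junb*-deficient counterpart and 32.1% in the last 10%. Where several peaks overlapped, the 1 nearest the head was used. TSSs, introns and exons come from GENCODE (NCBIM37, the same assembly), for protein-coding genes, with 70021 TSS positions. Motifs were matched exactly on both strands within 100 bp of the peak centre. Odds ratios over 20 strata of place used Mantel-Haenszel estimates (statsmodels 0.14.6), and shares carry exact binomial (Clopper-Pearson) 95% intervals. Python 3.11.15, NumPy 2.4.6, SciPy 1.17.1, pandas 2.3.3 and matplotlib 3.10.9 were used, and the procedures were tested on simulated data.

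The members, gene lists and features were chosen with earlier results of these data known. Genes named are those at the 15 largest falls, the 10 members nearest the head, members within 100 kb of a TSS of 149 listed genes (147 found in the annotation), the 5 largest rises, and the gene with the most members; some that the rule selects are not reported here. The steady sequence windows, the 7-letter words and 4 of 20 alternative settings were added after seeing the data. Overlap with repeats was planned and not run, because the genome copy carries no repeat mask. The RNA-seq data of the study were not analysed here.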

Additional observations from a re-analysis of the deposited data

How the results depend on the processing

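No paired analysis was possible because each condition had 1 library, and for the same reason no library could be left out. Of 446 values under 20 other settings, 390 kept their direction and side of the threshold. This tally includes values that a setting could not change. The odds ratio of the BATF peak against missing peaks, for example, does not depend on the motif window, the definition of steady peaks or the choice of TSSs. The AP-1 motif passed against steady peaks in all 20 (odds ratio 1.59 to 3.25), the RUNX motif likewise (0.501 to 0.689), and the BATF peak against missing peaks in 19 of 19 (2.50 to 10.6). The cause of the changes below was not tested.

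The falling share was 19.1% at a fall of 20 points, 6.58% at 40 points, 10.7% in the first 25000 rows, 7.89% with place among common peaks and 5.51% with BATF and IRF4 exchanged. The rising share between places 30% and 70%, 4.78% as reported, was 13.9% at 20 points, 1.09% at 40 points, 6.09% in the first 25000 rows and 25.05% with the exchange. With place among common peaks it was 5.63%, and over all places 641 peaks rose and 753 fell.

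With the exchange, odds ratios against steady peaks were 0.996 for BATF, 0.898 for AICE, 0.619 for the ISRE, 0.633 for promoters and 1.34 for the first 25% of the JunB list, none past the threshold. Against rising peaks BATF was 0.339, and against missing peaks AP-1 was 1.38 and passed.

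The AICE odds ratio against steady peaks did not pass at a fall of 20 points (1.26) or 40 points (1.42), with JunB centres within 100 bp (1.41), place among common peaks (1.12), steady under 5 points (1.51), all other peaks as steady (1.32), no strata (1.12), windows centred on JunB peaks (1.41), or, chosen after seeing the data, strata of place and JunB place (1.45), promoters left out (1.45) and BATF-shared peaks alone (1.33).

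Without strata, BATF against steady peaks was 1.10 and did not pass, the first 25% of the JunB list reversed to 0.767, BATF against rising peaks was 6.92 and AP-1 against missing peaks 1.21, both past the threshold. BATF against rising peaks was 0.591 at 40 points, 0.970 with IRF4 centres within 100 bp and 1.99, past the threshold, with place among common peaks. AP-1 against rising peaks was 4.41 at 40 points and did not pass. AP-1 against missing peaks was 0.960 at 20 points, 1.49 with IRF4 centres within 100 bp and 1.43 among common peaks, the last 2 past the threshold.

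Against rising peaks the RUNX odds ratio was 0.772 in the first 25000 rows and 0.434 with strata of place and GC, the ISRE odds ratio 0.690 at 40 points and 0.756 with the exchange, and that of GATA 0.357 at 40 points, none past the threshold. A TSS within 100 kb gave 0.773 against steady peaks with the exchange, and 0.720 to 0.805 against missing peaks with the exchange, all TSSs, the first 25000 rows or no strata, none past it.

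The intron odds ratio against steady peaks reversed to 0.925 and the ISRE odds ratio against missing peaks to 0.884 with place among common peaks. The ISRE odds ratio against missing peaks passed at 40 points (1.79) and without strata (1.45). The odds ratio of the first 25% of the JunB list against missing peaks reversed to 0.939 in the first 25000 rows and to 0.956 in BATF-shared peaks, and passed with IRF4 centres within 100 bp (1.33) and without strata (2.19). None of the reversed values in this paragraph passed.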
